A study of Homo sapiens with 8 samples.

Results

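The nuclear lamina and the LINC complex, which links the nuclear skeleton to that of the cytoplasm, were examined in HepG2 cells, a human line derived from a liver carcinoma, through 10 genes chosen by name. These were the lamins LMNA, LMNB1 and LMNB2, the SUN genes SUN1 and SUN2, the nesprins SYNE1 to SYNE4, and EMD, which encodes emerin. All 10 were found among the 38032 gene identifiers of the data. Wild-type HepG2 cells, with no added gene or drug, were kept for 8 days either on flat culture-ware (2D-primed, 4 libraries) or on the porous polystyrene membrane Alvetex Strata (3D-primed, 4 libraries). Cells of both groups were released with trypsin before lysis, and polyadenylated RNA was sequenced. The groups differed in growth surface, vessel and seeding together, whose parts in a difference cannot be told apart. The labels number the libraries 1 to 4 in each group without saying that they came from separate cultures, so the p-values measure the spread between these libraries.

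Lamins are intermediate filament proteins that form a mesh under the inner nuclear membrane. A-type lamins (lamin A and lamin C, both from LMNA) are associated with stiff nuclei and vary widely between tissues, whereas the B-type lamins are made in most cells and stay attached to the membrane by a farnesyl anchor. SUN proteins cross the inner membrane, bind lamins on the nuclear side and hold the KASH domains of nesprins in the space between the membranes. Nesprins span the outer membrane and reach actin (the long forms of nesprin-1 and nesprin-2), intermediate filaments through plectin (nesprin-3) or microtubule motors through kinesin (nesprin-4), so that force on the cytoskeleton can reach the nucleus.

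The libraries held 21599630 to 27844077 counts. Values are CPM, a gene's counts scaled to a common library total with TMM factors, and log2 fold changes are 3D-primed over 2D-primed. Where a pair of values stands without its groups, the 2D-primed value comes first. A gene was called at a Benjamini-Hochberg adjusted p below 0.05 in edgeR's quasi-likelihood test over the 13943 genes that reached 10 counts in 2 or more libraries. SE is the standard error of a log2 difference. All 9 hepatocyte markers were present, with a summed level of 69191 to 75267 CPM in 2D-primed libraries against 97238 to 109166 CPM in the 3D-primed ones. The sum does not stand for each marker, since 7 were called higher in 3D-primed cells and 2 in 2D-primed cells. Of all genes tested, 32.4% and 31.6% were called so. The fibroblast markers summed to 10.98 to 12.2 CPM in 2D-primed libraries against 15.1 to 18.1 CPM in the 3D-primed ones, with 2 of 6 reaching 1 CPM in any library (COL1A1 and PDGFRB). Most of the sum was PDGFRB, at 10 to 18 CPM. Of the 2 fibroblast markers tested, 1 was called higher in each group. The endothelial markers summed to 5.57 to 7.72 and 4.16 to 5.70 CPM, with 3 of 4 reaching 1 CPM. Here too 1 marker was called higher in each group. The leukocyte markers summed to 2193 to 2285 and 2420 to 3026 CPM, nearly all of it from LYZ, with 3 of 5 reaching 1 CPM (LYZ, CD68 and CD14), while PTPRC had 0 to 2 counts and CD3E none in any library. Among the leukocyte markers tested, 1 was called higher in 2D-primed cells and 2 in the 3D-primed ones. Mitochondrially encoded genes took 1.40 to 1.81% of counts in 2D-primed libraries against 2.47 to 2.98% in the 3D-primed ones. The part of these differences in the results on the nuclear envelope was not tested.

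SUN2, LMNA, SYNE2, SUN1 and EMD were called lower in 3D-primed cells, SYNE4, SYNE1, LMNB1 and SYNE3 were called higher, and LMNB2 was not called. Of the 10 genes, 5 were thus called higher in 2D-primed cells and 4 in 3D-primed cells, beside 31.6% and 32.4% of all genes tested, or 63.9% in either direction. The groups did not overlap in 8 of the 10 genes, and in 59.8% of all genes tested. The median absolute log2 fold change was 0.56 over the 10 genes and 0.34 over all genes tested, while the median signed change was -0.11 and 0.01. The 10 genes were chosen with earlier results of these data known, so these shares and medians describe the choice and test nothing. The genes ranged from SYNE4, whose absolute change exceeded that of about 94.4% of genes tested, to LMNB2, at percentile 4.73. In whole-culture RNA, fewer cells making a transcript and less of it per cell cannot be told apart.

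**Figure D1:**
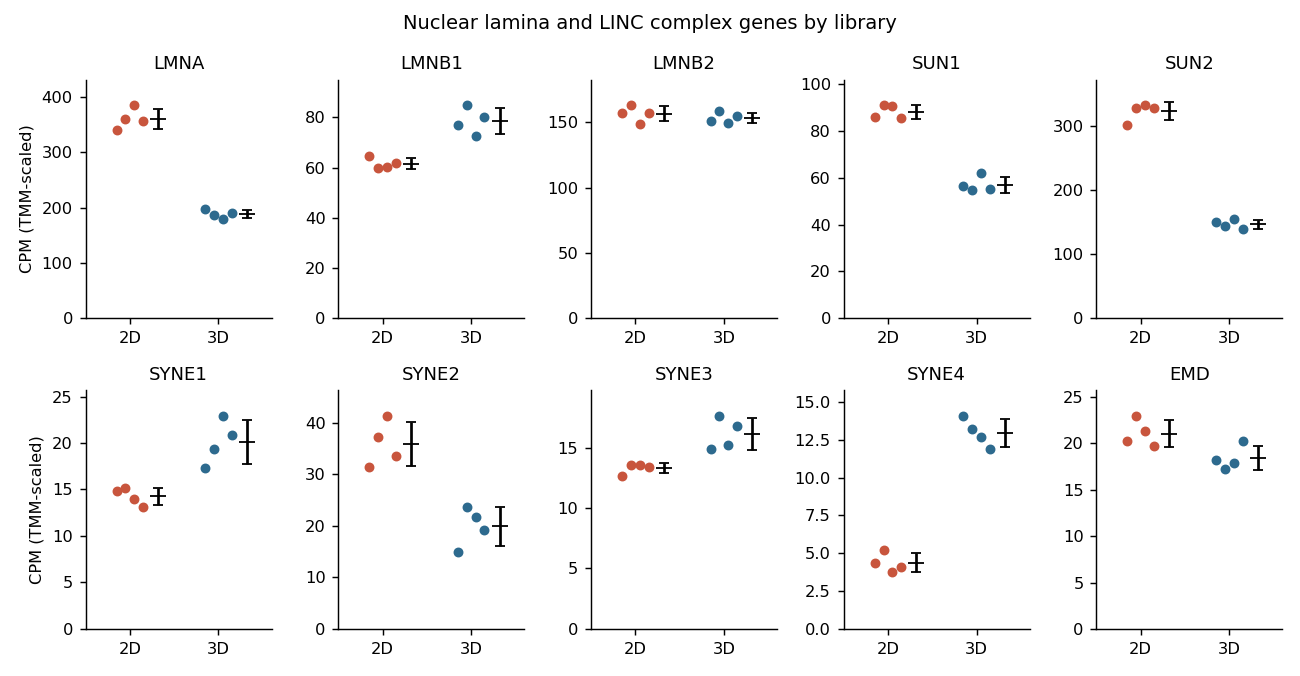
CPM of each gene (y axis, from 0, a scale for each panel) in the 4 2D-primed (red) and 4 3D-primed (blue) libraries, with the group mean and SD in black. LMNA, SUN1, SUN2 and SYNE2 lie lower in every 3D-primed library, LMNB1, SYNE1, SYNE3 and SYNE4 lie higher, and the groups overlap in LMNB2 and EMD.

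**Figure D2:**
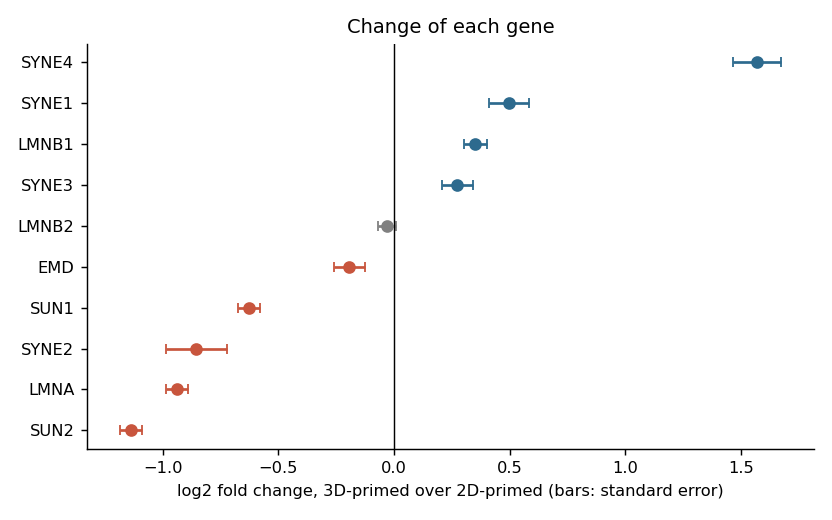
Log2 fold change of each gene (x axis, 3D-primed over 2D-primed) with its standard error, red for genes called lower and blue for genes called higher in 3D-primed cells, grey for LMNB2, which was not called. The values run from -1.14 for SUN2 to 1.57 for SYNE4.

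The 3 lamin genes took 3 different courses. LMNA (ENSG00000160789; GRCh38 chromosome 1, 156082573 to 156140081), the source of lamins A and C, was measured at 339.8, 359.7, 385 and 357 CPM in 2D-primed replicates 1 to 4 and at 197, 186, 179.6 and 191 CPM in the 3D-primed ones. Every 3D-primed library was thus far below the lowest 2D-primed one, and the mean was 1.91-fold higher in 2D-primed cells (edgeR, adjusted p = 1.3e-07). The transcripts of lamin A and lamin C cannot be separated in counts summed over a gene.

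LMNB1 (ENSG00000113368; chromosome 5, 126776623 to 126837020), a B-type lamin, moved the other way. Its 2D-primed libraries held 64.5, 60.0, 60.4 and 61.6 CPM and its 3D-primed libraries 76.9, 84.8, 72.8 and 80.01 CPM, 1.28-fold more in 3D-primed cells with no overlap (log2 fold change 0.35, SE 0.0507, edgeR adjusted p = 1.5e-04). LMNB2 (ENSG00000176619; chromosome 19, 2427638 to 2456959), the other B-type lamin, held 157, 163, 149 and 157 CPM in 2D-primed libraries against 151, 158, 149.8 and 154 CPM in the 3D-primed ones. Its groups overlapped, and its log2 fold change of -0.03 (SE 0.0392) was not called (edgeR, adjusted p = 0.52). The sign of this small value turned to 0.02 with upper-quartile scaling.

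Ratios within a library need no scaling between libraries, and 7 were tested with a two-sided exact permutation test, with p adjusted over the 7. A comparison of 4 with 4 libraries cannot give a p below 0.029, which every one of the 7 ratios reached, before and after adjustment. The ratio of A-type to B-type lamin counts, LMNA over the sum of LMNB1 and LMNB2, was 1.53, 1.61, 1.84 and 1.63 in 2D-primed replicates 1 to 4 and 0.867, 0.764, 0.807 and 0.813 in the 3D-primed ones. Without correction for transcript length, LMNA counts therefore exceeded the summed B-type lamin counts in every 2D-primed library and were below them in every 3D-primed library. The mean ratio was 1.65 ± 0.130 in 2D-primed cells against 0.813 ± 0.0419 in the 3D-primed ones (SD, n = 4), a difference of -1.02 on the log2 scale (SE 0.0666, exact permutation p = 0.029).

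Taken to each B-type lamin alone, the ratio was 5.86 ± 0.460 and 2.40 ± 0.158 for LMNA over LMNB1, and as 2.31 ± 0.190 and 1.23 ± 0.0589 for LMNA over LMNB2 (2D-primed first, SD, n = 4). On the log2 scale the ratio to LMNB1 differed by -1.29 and that to LMNB2 by -0.91. Within the B-type lamins, LMNB1 over LMNB2 was 0.368 to 0.411 in 2D-primed libraries against 0.486 to 0.535 in the 3D-primed ones, 1.30-fold higher in 3D-primed cells (exact permutation p = 0.029).

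As shares of all lamin counts, LMNA took 62.3 ± 1.79% in 2D-primed cells against 44.8 ± 1.27% in the 3D-primed ones, LMNB1 10.7 ± 0.597% and 18.7 ± 0.788%, and LMNB2 27.1 ± 1.38% and 36.5 ± 0.781% (SD, n = 4). The summed level of the 3 lamins fell from 578 ± 13.8 to 420.2 ± 12.2 CPM (two-sided exact permutation test, p = 0.029), so that the larger share of LMNB2 came with a level that was not called different. Divided by the length of each gene's MANE Select transcript, the reference transcript shared by Ensembl and RefSeq, the A-type to B-type ratio was 2.06 ± 0.160 in 2D-primed cells against 0.983 ± 0.0525 in the 3D-primed ones. On this scale 3D-primed replicates 1 to 4 held 1.05, 0.920, 0.982 and 0.982, so replicate 1 lay above 1.

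**Figure D3:**
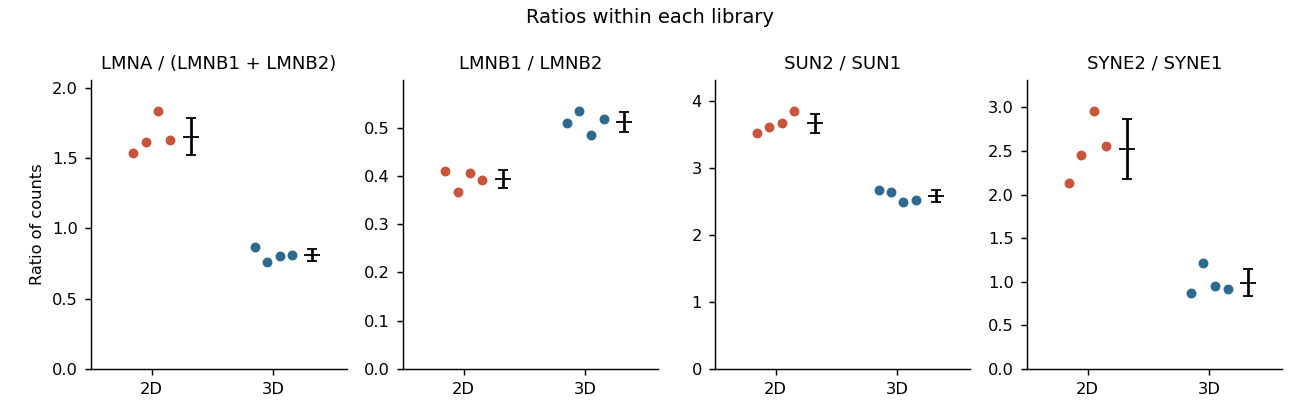
Ratios of counts (y axis, from 0) within each of the 4 2D-primed (red) and 4 3D-primed (blue) libraries, with the group mean and SD in black. LMNA over both B-type lamins, SUN2 over SUN1 and SYNE2 over SYNE1 are lower in every 3D-primed library, and LMNB1 over LMNB2 is higher.

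SUN1 and SUN2, the inner-membrane parts of the LINC complex, were both lower in 3D-primed cells, and by unequal amounts. SUN2 (ENSG00000100242; chromosome 22, 38733290 to 38794143) was measured at 303, 329, 333 and 329 CPM in 2D-primed replicates 1 to 4 and at 151, 144, 155 and 139 CPM in 3D-primed ones. Replicate 1 was the lowest of the 2D-primed libraries and still far above each 3D-primed library, and the log2 fold change was -1.14 (SE 0.0478, edgeR adjusted p = 4.9e-08). SUN1 (ENSG00000164828; chromosome 7, 816615 to 896435) held 85.9, 91.0, 90.6 and 85.4 CPM against 56.5, 54.7, 62.1 and 55.2 CPM. These groups were also apart, with a log2 fold change of -0.63 (SE 0.0485, edgeR adjusted p = 1.8e-06).

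SUN2 counts over SUN1 counts were 3.52, 3.61, 3.67 and 3.85 in the 2D-primed libraries and 2.67, 2.63, 2.49 and 2.52 in the 3D-primed ones. The ratio was lower in every 3D-primed library, at 3.67 ± 0.1399 against 2.58 ± 0.0860 (SD, n = 4), a difference of -0.51 on the log2 scale (SE 0.0364, exact permutation p = 0.029). SUN2 nevertheless remained the larger part of all SUN counts, at 78.6 ± 0.635% in 2D-primed cells against 72.0 ± 0.671% in the 3D-primed ones. The sum of SUN1 and SUN2 went from 412 ± 15.8 to 204 ± 10.1 CPM. In the annotation the span of SUN1 overlaps GET4 and that of SUN2 overlaps DNAL4, both on the same strand, and SUN2 also overlaps GTPBP1 on the other strand. These are spans of whole genes. Whether the transcripts share sequence that Salmon had to divide was not tested.

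The nesprins split by gene. SYNE2 (ENSG00000054654; chromosome 14, 63761899 to 64226433), which encodes nesprin-2, held 31.5, 37.3, 41.3 and 33.5 CPM in 2D-primed libraries against 15.01, 23.6, 21.8 and 19.1 CPM in the 3D-primed ones. The groups did not overlap, but the 3D-primed libraries spread more widely than for any other of the 10 genes, with a coefficient of variation of 18.8%. Its log2 fold change was -0.86 with the largest standard error of the 10, 0.131 (edgeR, adjusted p = 2.2e-04).

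SYNE1 (ENSG00000131018; chromosome 6, 152121687 to 152637801), which encodes nesprin-1, held 14.8, 15.2, 13.96 and 13.1 CPM against 17.4, 19.4, 22.9 and 20.8 CPM, and rose by 0.50 (log2, SE 0.0871, edgeR adjusted p = 5.5e-04). SYNE3 (ENSG00000176438; chromosome 14, 95407266 to 95516650), the gene of nesprin-3, held 12.7, 13.6, 13.6 and 13.4 CPM against 14.9, 17.6, 15.2 and 16.8 CPM, and rose by 0.27 (SE 0.0666, edgeR adjusted p = 0.0044). In both genes the lowest 3D-primed library was above the highest 2D-primed one, and the gap was the narrower in SYNE3, between 13.6 and 14.9 CPM.

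SYNE4 (ENSG00000181392; chromosome 19, 36003307 to 36008813), the gene of nesprin-4, had the largest change of the 10 and the lowest counts, 93 to 373 per library. Its 2D-primed libraries held 4.35, 5.23, 3.78 and 4.09 CPM and its 3D-primed libraries 14.1, 13.2, 12.7 and 11.9 CPM. Each 3D-primed library thus held more than 2 times the highest 2D-primed value, and the mean was 2.97-fold higher (log2 fold change 1.57, SE 0.104, edgeR adjusted p = 6.6e-07).

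Added together, the 4 nesprin genes held 67.9 ± 4.77 CPM in 2D-primed cells against 69.1 ± 5.64 CPM in the 3D-primed ones (SD, n = 4), with overlapping libraries (63.4 to 72.7 and 61.3 to 73.9 CPM) and no detectable difference (two-sided exact permutation test, p = 0.83). That holds for counts, to which long transcripts give most. Per kilobase of the MANE Select transcript the sum was 6.31 ± 0.498 against 12.2 ± 0.535 CPM per kb, 1.94-fold higher in 3D-primed cells with no overlap (two-sided exact permutation test, p = 0.029), a setting chosen after seeing the data. This rise rests on SYNE4, the shortest and least counted of the 4, which went from 3.16 to 9.39 CPM per kb. SYNE2 went from 1.65 to 0.912, SYNE3 from 0.982 to 1.19 and SYNE1 from 0.515 to 0.726 CPM per kb. The make-up of the summed counts also differed. SYNE2 took 52.8 ± 2.97% of nesprin counts in 2D-primed cells against 28.6 ± 3.22% in the 3D-primed ones, while SYNE4 took 6.45 ± 0.917% and 18.9 ± 2.71%, SYNE1 21.1 ± 1.75% and 29.1 ± 2.33%, and SYNE3 19.7 ± 0.996% and 23.4 ± 1.64%. SYNE2 over SYNE1 was 2.13 to 2.96 in 2D-primed libraries against 0.865 to 1.22 in the 3D-primed ones, so that SYNE2 was the most counted nesprin in every 2D-primed library and about level with SYNE1 in 3D-primed ones (log2 difference -1.36, SE 0.146, exact permutation p = 0.029).

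Set against this sum, SUN1 plus SUN2 over SYNE1 to SYNE4 was 5.82 to 6.46 in 2D-primed libraries against 2.69 to 3.38 in the 3D-primed ones, a difference of -1.04 on the log2 scale (SE 0.0784, exact permutation p = 0.029). Counts of long transcripts weigh heavily here, since the MANE Select transcripts are 27708 bases long for SYNE1, 21822 for SYNE2, 13557 for SYNE3 and 1377 for SYNE4. Per kilobase, SYNE4 was the leading nesprin in both groups, with 50.03 ± 3.96% and 76.8 ± 2.73% of the nesprin sum, and the shares of SYNE1 (8.18 ± 0.451% and 5.96 ± 0.863%) and SYNE3 (15.6 ± 1.07% and 9.75 ± 0.946%) turned from larger to smaller in 3D-primed cells. The SUN to nesprin ratio per kilobase differed by -1.97 on the log2 scale, and the rise of its nesprin sum rests on SYNE4. SYNE1 has 25 annotated coding transcripts from 630 to 27708 bases and SYNE2 has 13 from 536 to 21842, so their level per kilobase rests on an assumed full-length transcript. How tximport treated transcript length is not known here, and its part in the fold changes, shares and ratio of SYNE1 and SYNE2 was not tested.

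**Figure D4:**
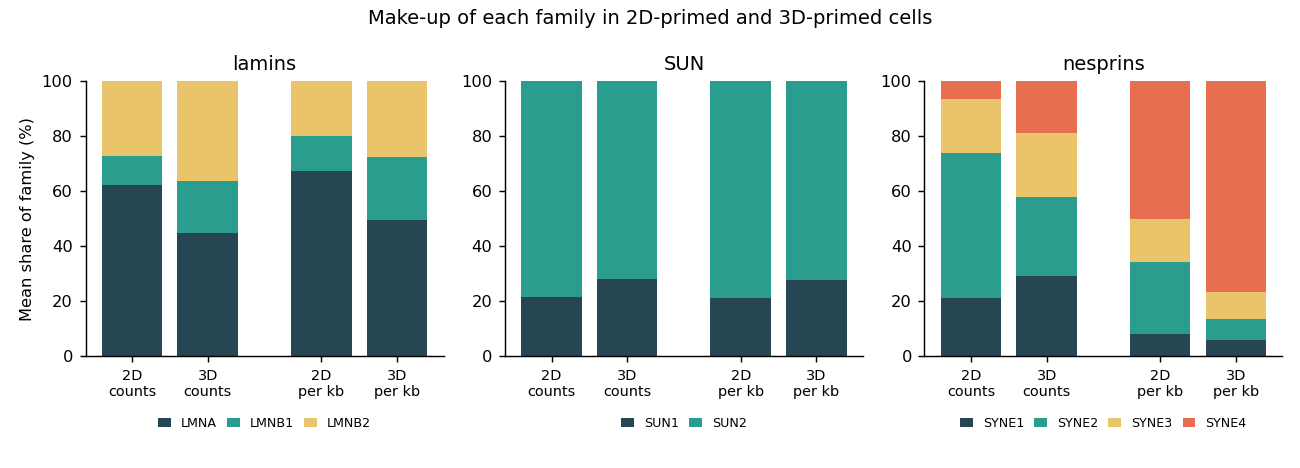
Mean share (y axis, in percent) of each gene in the lamin, SUN and nesprin sums of both groups, from counts and from counts per kilobase of the MANE Select transcript. LMNA falls from 62.3 to 44.8% of lamin counts and SYNE2 from 52.8 to 28.6% of nesprin counts, while SYNE4 rises from 6.45 to 18.9%.

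Emerin, an inner nuclear membrane protein that binds lamins, is encoded by EMD (ENSG00000102119; chromosome X, 154379273 to 154381574). Its libraries held 20.3, 23.0, 21.3 and 19.7 CPM in 2D-primed cells against 18.3, 17.3, 17.9 and 20.2 CPM in the 3D-primed ones. The highest 3D-primed value, in replicate 4, was above the lowest 2D-primed one, and the log2 fold change of -0.19 (SE 0.0675) was called by a narrow margin (edgeR, adjusted p = 0.029). The call was lost in 6 of 17 settings tried, among them total counts (adjusted p = 0.056 in edgeR) and upper-quartile scaling (0.077), and leaving out 2D-primed replicate 2 (0.081), 2D-primed replicate 3 (0.057) or 3D-primed replicate 2 (0.064), and over all settings tried the adjusted p ran from 0.011 to 0.081.

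Levels of different genes were compared per kilobase of the MANE Select transcript. In 2D-primed cells the order was LMNA (113 ± 5.86 CPM per kb), SUN2 (81.6 ± 3.52), LMNB2 (33.8 ± 1.24), SUN1 (22.0 ± 0.748), LMNB1 (21.3 ± 0.703), EMD (16.4 ± 1.13), SYNE4 (3.16 ± 0.450), SYNE2 (1.65 ± 0.198), SYNE3 (0.982 ± 0.0314) and SYNE1 (0.515 ± 0.0330), and SUN1 and LMNB1 were the only neighbours whose libraries overlapped. In 3D-primed cells LMNA (59.2 ± 2.32) and SUN2 (37.1 ± 1.79) still led, but closer to LMNB2 (33.1 ± 0.858) and LMNB1 (27.2 ± 1.76), which stood above EMD (14.4 ± 0.993) and SUN1 (14.2 ± 0.850). EMD and SUN1 overlapped there, as did SYNE2 (0.912 ± 0.172) and SYNE1 (0.726 ± 0.0844) at the low end, below SYNE4 (9.39 ± 0.659) and SYNE3 (1.19 ± 0.0965). LMNB1 thus stood beside SUN1 in 2D-primed cells and well above it in 3D-primed cells.

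The bases before the start of the MANE Select transcript are shown for SUN2 and SYNE2, which fell, and for LMNB1 and SYNE4, which rose, to set the sequence of genes that moved together beside their values. They come from RefSeq promoters of GRCh38.p14, which hold such a window for 8 of the 10 genes (not for LMNA and SUN1), and each run is the 250 bases upstream, 5′ to 3′ on the gene's strand. Capitals mark the GC box GGGCGG and the CCAAT box on either strand, and overlapping matches run together. SUN2 is at chr22:38755999-38756248 (minus strand), SYNE2 at chr14:63852754-63853003 (plus), LMNB1 at chr5:126776886-126777135 (plus) and SYNE4 at chr19:36008814-36009063 (minus).
SUN2: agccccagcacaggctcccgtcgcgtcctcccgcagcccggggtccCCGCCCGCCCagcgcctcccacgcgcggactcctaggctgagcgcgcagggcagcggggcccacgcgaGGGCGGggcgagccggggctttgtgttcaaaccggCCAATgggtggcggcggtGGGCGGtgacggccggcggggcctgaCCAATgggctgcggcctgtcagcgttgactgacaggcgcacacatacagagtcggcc
SYNE2: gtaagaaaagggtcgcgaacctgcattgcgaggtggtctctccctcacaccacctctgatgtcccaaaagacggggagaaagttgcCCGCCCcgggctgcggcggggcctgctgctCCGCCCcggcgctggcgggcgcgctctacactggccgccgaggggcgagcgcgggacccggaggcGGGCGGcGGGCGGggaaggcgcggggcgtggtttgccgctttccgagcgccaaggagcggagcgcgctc
LMNB1: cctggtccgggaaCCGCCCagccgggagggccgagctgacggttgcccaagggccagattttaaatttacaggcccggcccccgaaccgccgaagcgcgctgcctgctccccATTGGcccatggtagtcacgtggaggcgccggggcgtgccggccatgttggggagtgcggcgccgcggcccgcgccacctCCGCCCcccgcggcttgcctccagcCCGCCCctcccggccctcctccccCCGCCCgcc
SYNE4: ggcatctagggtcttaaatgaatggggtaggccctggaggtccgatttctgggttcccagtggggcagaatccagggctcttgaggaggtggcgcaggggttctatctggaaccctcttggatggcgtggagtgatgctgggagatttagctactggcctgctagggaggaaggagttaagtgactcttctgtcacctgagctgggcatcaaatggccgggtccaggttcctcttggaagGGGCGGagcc

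SUN2, SYNE2 and LMNB1 each had 4 GC boxes, a motif held by 42.6% of all 35116 windows of this length, and SYNE4 had 1. In the windows not shown, SYNE3 and EMD had 6 each, LMNB2 had 1 and SYNE1 had none. CCAAT, held by 32.01% of windows, was present in SUN2 (2 matches), LMNB1 (1) and EMD (2). SYNE4 was 57.6% G or C with 5 CpG pairs and SYNE1 was 47.6% with 7, whereas the other 6 genes were 66.4 to 80.8% with 29 to 34, beside a median of 58% over all windows. SYNE4 and SYNE1 were the nesprins with the largest rise, but LMNB1 and SYNE3 rose with 29 and 34 CpG pairs. The letters TGANTCA (AP-1, in 6.57% of windows) and GGAATG (TEAD, in 11.9%), searched on both strands, occurred in none of the 8 windows. Such matches describe the letters alone. SYNE1 has 4 windows in all, SUN2 and SYNE2 3 each, and LMNB1 and SYNE3 2 each, and only the one at the MANE Select start was read. Which start the cells used was not tested.

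Other genes of the nuclear envelope were read from lists of known parts. The counts called in each list stand beside 31.6% of all genes tested called higher in 2D-primed cells and 32.4% in 3D-primed cells. Of the inner nuclear membrane list, 15 of 16 genes were tested, 3 of which were called higher in 2D-primed cells against 4 in the 3D-primed ones, with a median absolute log2 fold change of 0.13. LBR, the lamin B receptor, rose with LMNB1, from 65.7 ± 3.46 to 102 ± 4.75 CPM (log2 fold change 0.64, edgeR adjusted p = 1.9e-06), and TMEM120A by 0.37. Torsin ATPases and their activators are on the list too, wherever in the cell they lie, and the activator TOR1AIP2 (LULL1) fell by 0.62. TMEM43 (LUMA), a partner of emerin, fell by 0.38. All the changes named for this list are on the log2 scale and were called in edgeR. The count higher in 3D-primed cells was 2 without 2D-primed replicate 2, 3D-primed replicate 2 or 3D-primed replicate 4. It was 6 with total counts, with upper-quartile scaling or without 3D-primed replicate 3.

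All 5 genes of the list for enzymes that finish lamins were tested, and 3 were called higher in 3D-primed cells and none lower (edgeR). Of all genes tested, 63.9% were called in either direction. The changes were small, with a median absolute log2 fold change of 0.12 in the list against 0.34 over all genes tested. None of the 5 had a negative change at any p, and no setting tried, DESeq2 included, called one lower. ZMPSTE24, the protease that cuts prelamin A, rose from 39.5 ± 1.41 to 61.9 ± 4.83 CPM (log2 fold change 0.65, edgeR adjusted p = 4.9e-06) while its substrate gene LMNA fell, and FNTB, the beta subunit of farnesyltransferase, rose by 0.28. FNTA, the alpha subunit, was the other called gene, at 0.11. The count called higher was 2 with DESeq2 and without 2D-primed replicate 1, 2D-primed replicate 2, 3D-primed replicate 1 or 3D-primed replicate 2, and ran from 2 to 4 over the settings tried.

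Among other SUN and KASH genes and partners of the LINC complex, 9 of 13 were tested (SUN3, SUN5 and KASH5 were listed at 0 in all libraries and IRAG2 at 0 to 3 counts), with 5 called higher in 2D-primed cells against 2 in the 3D-primed ones and a median log2 fold change of -0.31. PLEC, which encodes plectin, the linker of nesprin-3 to intermediate filaments, went from 237 ± 18.7 to 90.1 ± 8.30 CPM (log2 fold change -1.40, edgeR adjusted p = 1.8e-07), against the rise of SYNE3. SPAG4, another SUN gene, went from 54.6 ± 3.27 to 27.7 ± 7.51 CPM (-0.97 on the log2 scale, edgeR adjusted p = 4.7e-04). PCM1, a centriolar satellite protein, rose by 0.40 and FHOD1, a formin that binds nesprin-2, by 0.26. KIF5B, the heavy chain of the kinesin that nesprin-4 recruits, was at 311 and 312 CPM (edgeR, adjusted p = 0.96). Of the kinesin light chains, KLC2 was called lower in 3D-primed cells (log2 fold change -0.31, edgeR adjusted p = 1.3e-04). KLC1 was not called (-0.12, edgeR adjusted p = 0.079). The motor partners BICD2 (-0.63) and DYNC1H1 (-0.60) were also called lower.

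Of the lamina-associated chromatin list, 6 of 7 genes were tested (EHMT2 was listed at 0), of which 3 were called higher in 2D-primed cells and 1, CBX3 (0.50), in 3D-primed cells. PRR14, which tethers heterochromatin to the lamina, fell by 0.71 and HDAC3, the deacetylase bound by emerin, by 0.41 on the log2 scale. The count higher in 3D-primed cells was 2 without 2D-primed replicate 2 or 3D-primed replicate 1. The nuclear pore complex had 12 of 32 genes called higher in 2D-primed cells against 15 in the 3D-primed ones, with a median absolute log2 fold change of 0.20 against 0.56 for the lamins, SUN genes, nesprins and EMD. Its extremes were POM121C (-0.48) and NUP214 (-0.43), NUP107 (0.50) and NUP42 (0.47), and POM121C is uncertain because reads can be split with its near-identical copy POM121.

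**Figure D5:**
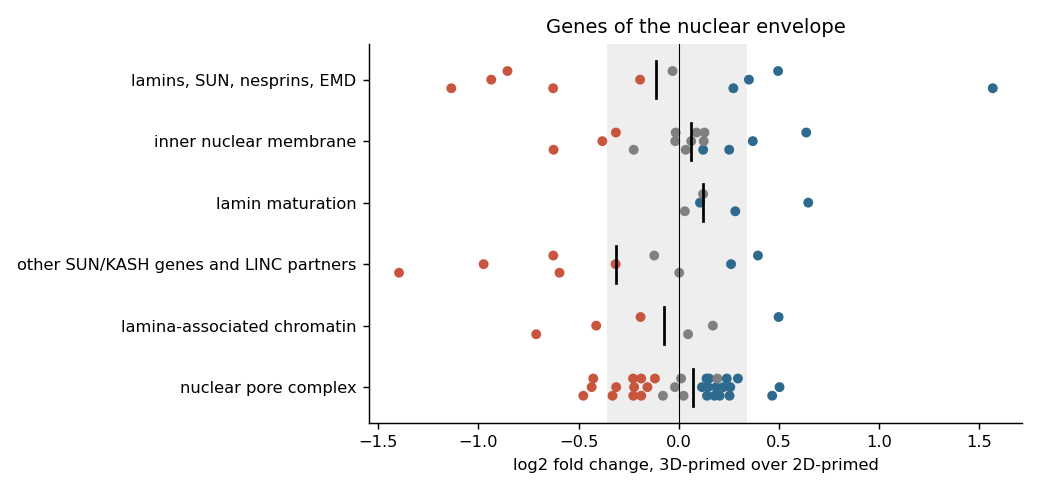
Log2 fold change (x axis, 3D-primed over 2D-primed) of every tested gene in 6 lists, red for genes called lower and blue for genes called higher in 3D-primed cells, grey for genes not called. Black bars are list medians and the grey band holds the middle of all genes tested, from -0.35 to 0.34, and the lamins, SUN genes and nesprins reach from -1.14 to 1.57 where nuclear pore genes stay between -0.48 and 0.50.

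The genes most like LMNA, SUN2 and SYNE4 were sought by Pearson's r of log2 CPM over the 8 libraries among 8724 genes with a mean of at least 10 CPM. LMNA was most like WDR1 (r = 0.999), an actin disassembly factor, and PCBP4 (0.999), SUN2 was most like CEMIP (0.999) and GRAMD1A (0.999), and SYNE4 was most like ST6GAL1 (0.997) and PRXL2A (0.996). These values rest on the gap that the 8 libraries share between the groups and describe the libraries alone. Likeness in r is not likeness in size, since CEMIP had a log2 fold change of -3.33 and ST6GAL1 of 0.38.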

How the data were processed

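The authors deposited estimated counts per gene for each library, made with Salmon on the Ensembl GRCh38 cDNA and summed with tximport. The deposited counts are whole numbers without scaling to depth, and how tximport treated transcript length is not given in the sources used here. Symbols, positions and MANE Select lengths came from GENCODE annotation of GRCh38 by identifier (29661 of 38032 identifiers, with 97.4% of counts). Chi-square per degree of freedom between libraries of a group was 6.15 to 16.9, above counting noise. Genes reaching 10 counts in 2 or more libraries were tested in edgeR 4.0.16 (R 4.3.3) with TMM, glmQLFit and glmQLFTest, and standard errors were taken as the fold change divided by the square root of F. Ratios were tested by exact permutation in scipy 1.17.1. Alternatives were DESeq2 1.42.0, limma-voom (limma 3.58.1), other scalings and filters, leaving out each library, and a replicate block. The edgeR, DESeq2 and limma-voom fits in their main setting were run on simulated data, with the same spread beyond counting noise for every gene. The other scalings and filters, the left-out libraries and the replicate block were not run on simulated data. Named are the 10 genes, up to 2 called genes in each direction of each list with the largest change, and the 2 genes most like LMNA, SUN2 and SYNE4. KIF5B, KLC1, KLC2, BICD2, DYNC1H1, FNTA, POM121, listed genes at or near 0, and the cell type markers were named after their values were seen. The genes and lists were chosen with earlier results of these data known.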

Additional observations from a re-analysis of the deposited data

Results flagged for a closer look

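SUN2 in 2D-primed replicate 1, at 303 CPM, stood apart from the other 2D-primed libraries at 329 to 333 CPM, with a gap of 0.871 of the group's range, above the 95% critical value of Dixon's test for 4 samples. Of 34 groups of 4 values tested, 1 was marked, and chance marks about 1 in 20. Without this library the log2 fold change of SUN2 was -1.17.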

How the results depend on the processing

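SUN2, LMNA, SUN1, SYNE2, LMNB1, SYNE1, SYNE3 and SYNE4 kept their direction and call in all 17 alternatives each. EMD lost its call in 6, among them the replicate block (edgeR, adjusted p = 0.069), and LMNB2, never called, turned to 0.0199 with upper-quartile scaling. Genes called ran from 8357 to 9070. The lamina-associated chromatin genes called higher in 3D-primed cells went from 1 to 2 with total counts, with upper quartile and with the replicate block, and ran from 1 to 2 with a library left out. Inner nuclear membrane genes called higher in 3D-primed cells ran from 2 to 6 with a library left out, and were 6 with total counts and with upper quartile. The cause was not tested. The labels do not say whether replicate numbers pair the libraries. Deviations of same-numbered libraries correlated at -0.043 to 0.057. That shows no shared shift, but it cannot show whether the libraries came from the same cells. The block changed the number of genes called from 8916 to 8490. Paired by number, the log2 ratios kept their values (-1.02 for LMNA over both B-type lamins, -1.29 over LMNB1, -0.91 over LMNB2, 0.38 for LMNB1 over LMNB2, -0.51 for SUN2 over SUN1, -1.36 for SYNE2 over SYNE1, -1.04 for SUN over nesprins), with an exact permutation p of 0.125, the smallest that 4 pairs allow. With a library left out the smallest possible p is 0.057, so these settings carry no call, and the same 7 values ran from -1.06 to -0.97, -1.34 to -1.24, -0.94 to -0.85, 0.35 to 0.41, -0.53 to -0.48, -1.46 to -1.28 and -1.10 to -0.99. Depth limits SYNE4 most, with 93 to 121 counts in 2D-primed libraries.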
